A study of Rattus norvegicus with 10 samples.

Results

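The core circadian clock was followed in hippocampal slices of rats through 10 genes, chosen by their symbols in the table of gene counts. They were Per1, Per2 and Bhlhe40, which are also inducible through the transcription factor CREB, and Per3, Nr1d1, Nr1d2, Dbp, Arntl, Clock and Ciart. All 10 were found once each among the 32545 genes of the table, and 10 of 10 were among the 15032 genes that passed the filter on low counts. The slices came from male Wistar rats of 5 to 7 weeks, and the CA1 field was microdissected from slices collected 1 h after drug treatment that followed 30 min of basal stimulation. There were 5 groups of 2 libraries each. SKF was given by itself (SKF), with Aβ (SKF+Aβ), with Aβ and the empty carrier (SKF+Aβ+CSP) or with Aβ and the loaded carrier (SKF+Aβ+CSP‐TTK21), and the last group was CSP‐TTK21 alone. SKF is an agonist of the dopamine D1/D5 receptors, which act through cAMP, and Aβ is the oligomeric amyloid‐beta peptide, applied at 200 nM. CSP is a carbon nanosphere derived from glucose, and CSP‐TTK21 is this carrier with TTK21, a small molecule that activates CBP and p300, both histone acetyltransferases. Either particle was applied at 0.36 μg/ml. CSP‐TTK21 alone had neither SKF nor Aβ. The untreated slices of the study are not analysed here, so no comparison gives the effect of SKF by itself. Each library was made from 2 slices of 2 biological samples, and the hour of the day at which the tissue was taken is not given in the sources used here.

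The clock is a transcriptional loop that runs in most cells. CLOCK and BMAL1, the product of Arntl, bind E-box elements together and switch on the Per genes, Nr1d1, Nr1d2, Dbp, Bhlhe40 and Ciart, and the PER proteins, with their CRY partners, return to block them. NR1D1 and NR1D2, known as REV-ERBα and REV-ERBβ, repress Arntl through ROR elements, so that the level of Arntl runs opposite to that of Dbp and Nr1d1 over the day. A second input comes from outside the loop, because CREB, the factor activated by cAMP and by neuronal activity, induces Per1, Per2 and Bhlhe40 within an hour of a stimulus in the brain's central pacemaker and in other cells.

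Promoter windows were read from RefSeq sequences of the rat assembly GRCr8, 250 bases before to 50 bases after the gene start, and 10 of 10 genes were matched, Arntl under its newer name Bmal1. Each was searched on both strands for the E-box CACGTG, the full CRE TGACGTCA, to which CREB binds, the shorter CRE core TGACG, the D-box TTATGTAA or TTACGTAA, to which DBP binds, and the ROR element AGGTCA. A full CRE also contains the core. The E-box was present in 2 of the 10 windows, Bhlhe40 and Ciart, and in 6.42% of 33469 rat promoter windows of the same length. The full CRE was present in 0 of the 10 windows and in 1.83% of all windows. The core was found in Per2, Per3 and Nr1d2, which is 3 of the 10 windows against 21.2% of all. The D-box was found in Per2 alone among the 10, against 1.01% of all windows, and the ROR element in Arntl and Nr1d2, against 16.2%. The matches are letters in a window and say nothing of binding. Elements outside the window or with other letters were not searched, so an absence here does not mean that a gene lacks the element. The windows of the 3 genes with an E-box or D-box are shown with these elements and the CRE core in capitals. Per2 lies at chr9:99496944-99497243 on the minus strand, Bhlhe40 at chr4:143174200-143174499 on the plus strand and Ciart at chr2:186112197-186112496 on the minus strand.
Per2: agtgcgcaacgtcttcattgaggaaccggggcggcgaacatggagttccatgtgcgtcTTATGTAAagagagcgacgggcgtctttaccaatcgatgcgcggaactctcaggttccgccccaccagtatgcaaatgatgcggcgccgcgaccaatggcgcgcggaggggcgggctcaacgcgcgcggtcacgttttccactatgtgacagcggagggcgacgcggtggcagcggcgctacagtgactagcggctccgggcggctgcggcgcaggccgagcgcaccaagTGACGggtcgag
Bhlhe40: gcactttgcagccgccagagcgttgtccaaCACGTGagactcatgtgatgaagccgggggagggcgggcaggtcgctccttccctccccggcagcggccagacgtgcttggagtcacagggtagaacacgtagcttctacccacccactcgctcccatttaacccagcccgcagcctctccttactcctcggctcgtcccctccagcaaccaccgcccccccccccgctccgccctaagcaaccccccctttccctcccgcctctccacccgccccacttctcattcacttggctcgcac
Ciart: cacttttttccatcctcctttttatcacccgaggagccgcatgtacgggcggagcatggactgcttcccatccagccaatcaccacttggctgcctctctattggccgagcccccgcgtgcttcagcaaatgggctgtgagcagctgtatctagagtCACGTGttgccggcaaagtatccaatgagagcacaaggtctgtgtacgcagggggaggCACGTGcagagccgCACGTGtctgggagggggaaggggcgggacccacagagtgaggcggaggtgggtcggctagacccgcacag
The Per2 window carried the D-box from base -192 relative to the gene start and the CRE core from base 39 after it. Ciart, which encodes a repressor of CLOCK and BMAL1, carried 3 E-boxes, from bases -93, -35 and -21. The single E-box of Bhlhe40 began at base -220.

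Total counts ran from 6753742 to 8473407 per library, and 3 counts corresponded to 0.354 to 0.444 CPM (a count scaled to a common library total). The least abundant clock gene, Ciart, had 97 to 166 counts per library, so all members were measured well above that floor, which covers counting error only. Replicates were further apart than counting error alone would give (chi-square over its degrees of freedom 4.97 to 12.6), and each entered the tests as a library of its own. Wfs1 and the other CA1 pyramidal markers summed to 308 to 663 CPM, with 5 of 6 matched, 4 of 6 tested and Fibcd1 at 0 counts. Oligodendrocyte markers summed to 10918 to 24920 CPM and astrocyte markers to 3106 to 4559 CPM. In these bulk samples fewer cells of a type and less RNA per cell cannot be told apart.

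Levels are given as normalized CPM, the CPM after scaling by edgeR's TMM factors. They compare a gene between libraries, not one gene with another. The 10 clock genes varied about as much as other genes of their level. The median clock gene had a ratio of 1.56 between its highest and lowest library, against 1.52 for the 6782 tested genes whose mean level lay in the same range. The ratio between the highest and the lowest group mean had a median of 1.32 for the clock genes and 1.29 for those 6782 genes. Of the 40 pairs of groups next to each other in the order of a gene's means, 36 had overlapping libraries. The same share was not computed over all genes, so this count does not set the clock genes apart from others.

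**Figure D1:**
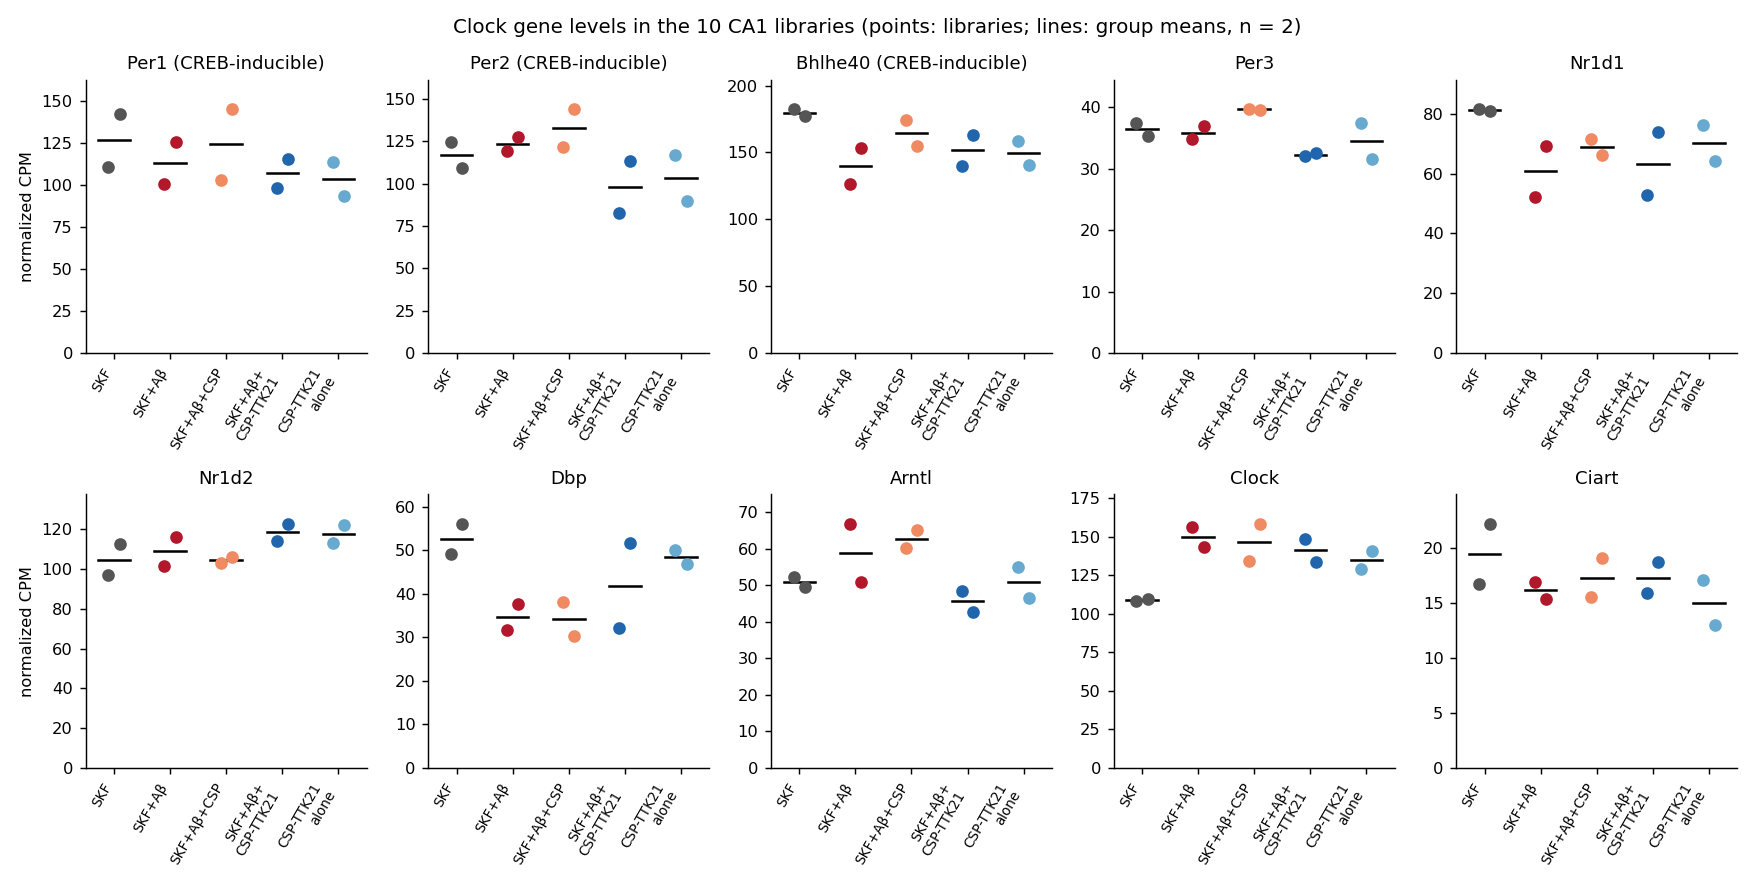
Normalized CPM (vertical axes from 0) of each clock gene in the 10 libraries (points) with group means (lines, n = 2). Clock sat at 108 and 109.7 CPM in the SKF libraries and at 129 to 159 CPM in the other 8, and Bhlhe40 and Nr1d1 were highest in the SKF libraries, while the groups of Per1 overlapped.

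Among the 3 CREB-inducible genes, Per1 and Per2 showed no group apart from the rest and Bhlhe40 was highest with SKF. Per1, a repressor of the loop and the classic gene for resetting by light, was at 111 and 142 normalized CPM with SKF, 100.3 and 126 with SKF+Aβ, 103 and 145 with SKF+Aβ+CSP, 98.4 and 115 with SKF+Aβ+CSP‐TTK21, and 114 and 93.3 with CSP‐TTK21 alone. The replicates of a group were as far apart as the groups, and every pair of neighbours in the order of the means overlapped. The mean ran from 103 ± 14.3 (SD, n = 2) with CSP‐TTK21 alone to 127 ± 22.3 with SKF, and the edgeR test across the 5 groups gave an adjusted p of 0.729.

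Per2, the partner repressor of Per1, was at 124 and 109 normalized CPM with SKF, 119 and 127 with SKF+Aβ, 122 and 144 with SKF+Aβ+CSP, 82.7 and 113 with SKF+Aβ+CSP‐TTK21, and 117 and 89.8 with CSP‐TTK21 alone. Its highest mean was 133 ± 15.8 with the empty carrier and its lowest 98.0 ± 21.7 with the loaded one. Both libraries of SKF+Aβ and both of SKF+Aβ+CSP lay above the 4 libraries with CSP‐TTK21, as for 3.27% of all genes tested, and SKF overlapped every other group. This split, like those given for Arntl and Dbp, was picked after the levels were seen. Against SKF+Aβ+CSP, the difference in SKF+Aβ+CSP‐TTK21 was a log2 fold change of -0.44 (SE 0.17, edgeR adjusted p = 0.556), so it did not pass the test. One library decided its size: the value was -0.69 without replicate 2 of SKF+Aβ+CSP‐TTK21 and -0.23 without replicate 1.

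Bhlhe40, which encodes a repressor that competes for E-boxes and that is induced by activity in neurons, was at 182 and 177 normalized CPM with SKF, 126 and 154 with SKF+Aβ, 174 and 155 with SKF+Aβ+CSP, 140.2 and 163 with SKF+Aβ+CSP‐TTK21, and 159 and 141 with CSP‐TTK21 alone. Both SKF libraries were above the other 8. Of all genes tested, 7.48% likewise had every other library below both SKF libraries. In SKF+Aβ against SKF the log2 fold change was -0.36 (SE 0.14, edgeR adjusted p = 0.150). Without replicate 2 of SKF+Aβ it was -0.53 and without replicate 1 it was -0.24, and with the offsets for gene length on the chromosome described further on it was -0.18.

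The repressors outside the CREB-inducible set moved in the same small range. Nr1d1, the repressor of Arntl, was at 81.6 and 81.0 normalized CPM with SKF, 52.2 and 69.2 with SKF+Aβ, 71.5 and 66.1 with SKF+Aβ+CSP, 52.8 and 73.9 with SKF+Aβ+CSP‐TTK21, and 76.2 and 64.0 with CSP‐TTK21 alone. The SKF libraries were again above the other 8, and the remaining groups overlapped in the order of their means. In SKF+Aβ against SKF the log2 fold change was -0.42 (SE 0.18, edgeR adjusted p = 0.185), and it was -0.66 without replicate 2 of SKF+Aβ, -0.25 without replicate 1 and -0.26 with the same offsets.

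Nr1d2, its close relative, did not follow Nr1d1. It was at 96.9 and 113 normalized CPM with SKF, 102 and 116 with SKF+Aβ, 103 and 106 with SKF+Aβ+CSP, 114 and 123 with SKF+Aβ+CSP‐TTK21, and 113 and 122 with CSP‐TTK21 alone. The CSP‐TTK21 groups had the highest means, 119 ± 5.999 and 118 ± 6.41, and neighbouring groups in the order overlapped throughout. Nr1d2 had the smallest ratio between group means of the 10 genes, 1.13.

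Per3, a Per gene with a lesser part in keeping the loop running, was at 37.5 and 35.4 normalized CPM with SKF, 34.8 and 37.0 with SKF+Aβ, 39.7 and 39.6 with SKF+Aβ+CSP, 32.1 and 32.5 with SKF+Aβ+CSP‐TTK21, and 37.4 and 31.5 with CSP‐TTK21 alone. Like Per2, it was highest with the empty carrier and lowest with the loaded one among the groups that had SKF and Aβ, and neither difference passed the test. Ciart was at 16.7 and 22.2 normalized CPM with SKF, 16.9 and 15.4 with SKF+Aβ, 15.5 and 19.1 with SKF+Aβ+CSP, 15.9 and 18.7 with SKF+Aβ+CSP‐TTK21, and 17.0 and 13.0 with CSP‐TTK21 alone, and its groups overlapped wherever they were neighbours in the order.

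The activators Clock and Arntl had their highest means in SKF+Aβ and SKF+Aβ+CSP, and the lowest mean was that of SKF for Clock and that of SKF+Aβ+CSP‐TTK21 for Arntl. Clock was at 108 and 109.7 normalized CPM with SKF, 156 and 144 with SKF+Aβ, 135 and 159 with SKF+Aβ+CSP, 148 and 134 with SKF+Aβ+CSP‐TTK21, and 129 and 141 with CSP‐TTK21 alone. Every other library was above both SKF libraries, as for 9.58% of all genes tested, and the other 4 groups overlapped in the order of their means. The log2 fold change against SKF was 0.46 (SE 0.13, edgeR adjusted p = 0.0745) in SKF+Aβ, which was the lowest adjusted p of any clock gene in any comparison. It was 0.43 (SE 0.13, adjusted p = 0.119) in SKF+Aβ+CSP. With the loaded carrier it was 0.37 (SE 0.13, adjusted p = 0.157) in SKF+Aβ+CSP‐TTK21 and, without SKF and Aβ, 0.31 (SE 0.13, adjusted p = 0.633). These 4 values share the SKF libraries and are not 4 independent observations. With DESeq2 the adjusted p of the first was 0.0331, and over the alternatives run it lay between 0.0331 and 0.258.

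Arntl was at 52.4 and 49.5 normalized CPM with SKF, 66.9 and 51.0 with SKF+Aβ, 60.1 and 65.2 with SKF+Aβ+CSP, 48.6 and 42.8 with SKF+Aβ+CSP‐TTK21, and 55.0 and 46.7 with CSP‐TTK21 alone. Both libraries of SKF+Aβ+CSP‐TTK21 lay below those of SKF, SKF+Aβ and SKF+Aβ+CSP, as for 6.09% of all genes tested and for 2 of the 10 clock genes, Arntl and Per3. Against SKF+Aβ+CSP the log2 fold change was -0.45 (SE 0.16, edgeR adjusted p = 0.556). Against SKF+Aβ it was -0.37 (SE 0.16, adjusted p = 0.746), -0.55 without replicate 2 of SKF+Aβ and -0.16 without replicate 1.

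Dbp, a target of CLOCK and BMAL1 with one of the strongest daily rhythms known, had the widest spread of the 10 genes, with a ratio of 1.85 between its highest and lowest library. It was at 49.1 and 56.1 normalized CPM with SKF, 31.7 and 37.6 with SKF+Aβ, 38.2 and 30.3 with SKF+Aβ+CSP, 32.1 and 51.6 with SKF+Aβ+CSP‐TTK21, and 49.9 and 46.8 with CSP‐TTK21 alone. The groups with Aβ and without CSP‐TTK21 lay below both groups without Aβ, as for 6.39% of all genes tested, and the replicates of SKF+Aβ+CSP‐TTK21 fell on either side. Against SKF the log2 fold change was -0.60 (SE 0.21, edgeR adjusted p = 0.115) in SKF+Aβ. It was -0.61 (SE 0.21, adjusted p = 0.147) in SKF+Aβ+CSP. Without the filter on low counts the adjusted p of Dbp was 0.0188 and 0.0247 in these comparisons, and over the alternatives run it reached 0.341 and 0.756.

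Over 8 comparisons, 0 of the 80 tests of a clock gene passed edgeR's quasi-likelihood test at an adjusted p under 0.05, and 11 had an unadjusted p under 0.05. By limma 0 of the 80 passed and by DESeq2 1 of them, that of Clock. The 80 log2 fold changes lay between -0.61 and 0.46, and their 95% intervals reached from -1.06 to 0.74, with 2 of the 80 intervals extending beyond 1 in size. The test across the 5 groups passed for 0 of the 10 genes, with an unadjusted p under 0.05 for Clock (edgeR adjusted p = 0.302) and Dbp (adjusted p = 0.318), or 2 of 10 where 14.3% of all genes had one and 0.00665% passed.

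In SKF+Aβ against SKF, 2.08% of all genes passed the test and 22.8% had an unadjusted p under 0.05, beside 0 and 4 of the 10 clock genes (Bhlhe40, Nr1d1, Dbp and Clock). In this comparison 49.6% of all genes had groups that did not overlap, as did these 4 of the 10. In SKF+Aβ+CSP against SKF, 0.02% of all genes passed and 19.3% had an unadjusted p under 0.05, beside 0 and 2 clock genes (Dbp and Clock). The shares of all genes were 0.00665% and 19.6% in SKF+Aβ+CSP‐TTK21 against SKF, and 0% and 7.78% in CSP‐TTK21 alone against SKF, each with Clock as the 1 member that had an unadjusted p under 0.05.
In SKF+Aβ+CSP against SKF+Aβ, 0% of all genes passed and 2.18% had an unadjusted p under 0.05, and none of the 10 clock genes did. In SKF+Aβ+CSP‐TTK21 the shares were 0% and 6.59% against SKF+Aβ, with Arntl as the 1 member, and 0% and 8.78% against SKF+Aβ+CSP, with Per2 and Arntl as the 2 members. Against CSP‐TTK21 alone they were 0% and 4.18%, with 0 members. The members whose groups did not overlap numbered 6, 6 and 4 of 10 in the other comparisons against SKF, in the same order, where 52.4%, 50.5% and 36.1% of all genes qualified. In the 4 comparisons without SKF as baseline they numbered 2, 3, 4 and 0 of 10, where 27.2%, 35.9%, 46.3% and 33.6% of all genes did.

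**Figure D2:**
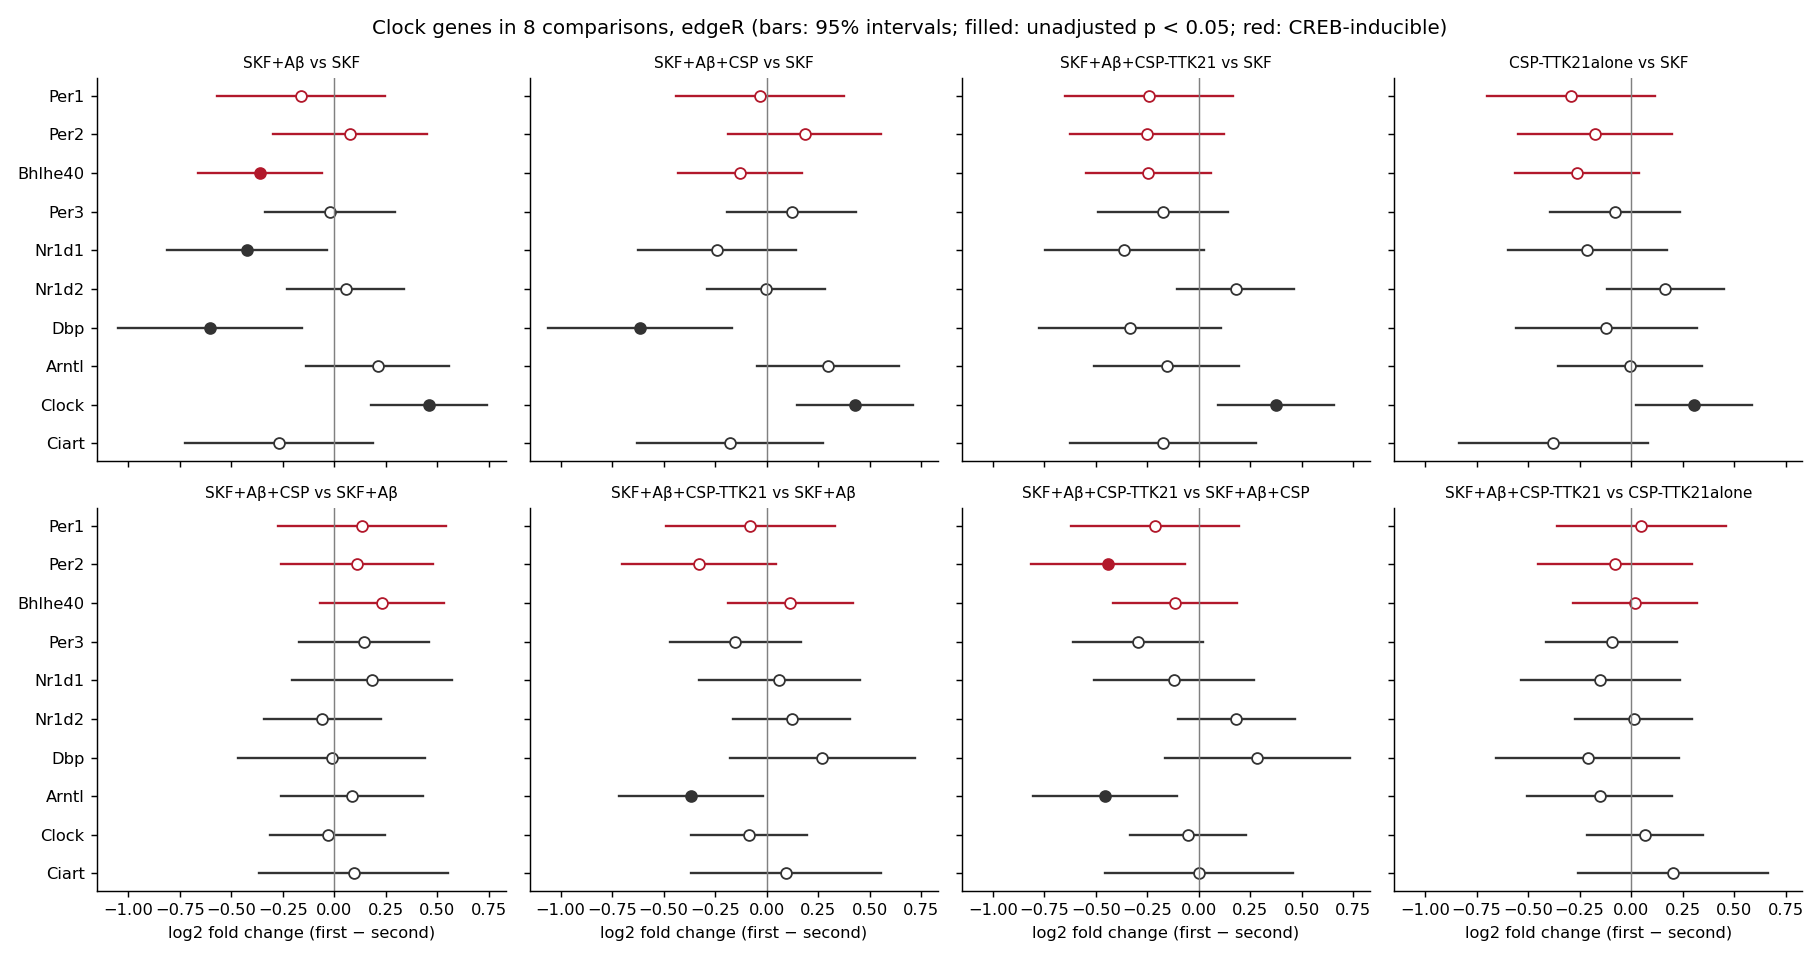
Log2 fold changes (horizontal axes, first group minus second) of the 10 clock genes in 8 comparisons from edgeR, with 95% intervals as bars; filled points have an unadjusted p under 0.05 and red marks the CREB-inducible genes. The filled points number 11 of 80, 8 of them in the 4 comparisons against SKF in the upper row, and all lie between -0.61 and 0.46.

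The CREB-inducible genes were then set beside the other clock genes. The median log2 fold change of Per1, Per2 and Bhlhe40 against SKF was -0.16 in SKF+Aβ, -0.03 with the empty carrier added, -0.24 with the loaded carrier and -0.26 in CSP‐TTK21 alone. For the other 7 genes it was -0.02, -0.003, -0.17 and -0.08 in the same order, beside a median within 0.02 of 0 over all genes tested. In CSP‐TTK21 alone and in SKF+Aβ+CSP‐TTK21, the values were below SKF for 3 of 3 CREB-inducible genes, with none past the test. They were also below SKF for 5 of the 7 others in each, and for 7463 and 7705 of all 15032 genes tested. Within libraries, the mean log2 level of the 3 genes relative to their own averages exceeded that of the other 7 by 0.10 and 0.05 in the SKF libraries. The difference was -0.08 and 0.11 with SKF+Aβ, 0.03 and 0.18 with SKF+Aβ+CSP, -0.14 and -0.01 with SKF+Aβ+CSP‐TTK21, and -0.05 and -0.19 with CSP‐TTK21 alone. Replicates of 1 group thus lay as far apart as -0.08 and 0.11, and the difference between the sets was not tested.

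From a list of 20 early genes induced by cAMP and activity, such as Fos, Arc and Sik1, 19 were matched and tested. These 19 gave a reference for how CREB targets behaved in the same libraries. Their summed level was 3743 and 3474 CPM with SKF, 2030 and 3512 with SKF+Aβ, 2217 and 2889 with SKF+Aβ+CSP, 2930 and 3254 with SKF+Aβ+CSP‐TTK21, and 2349 and 1604 with CSP‐TTK21 alone. The group without the dopamine agonist had the lowest library and SKF the highest. This order was not kept throughout, as 1 library of SKF+Aβ (2030) and 1 of SKF+Aβ+CSP (2217) lay below 1 of CSP‐TTK21 alone (2349). CSP‐TTK21 alone lacks SKF and has CSP‐TTK21, so their parts in its difference from SKF cannot be told apart. In CSP‐TTK21 alone against SKF the 19 genes had a median log2 fold change of -0.77, and 13 of them had an unadjusted p under 0.05, all lower, where 3.63% of all genes were lower by that rule. By edgeR 0 of the 19 passed the adjusted test. The genes of this list were measured in the same few libraries and can move together, so such counts are not independent observations, here or below. Sik1, a kinase gene that CREB induces, had the lowest p, with a log2 fold change of -0.75 (SE 0.13, adjusted p = 0.404), followed by Junb at -1.16, Gadd45b at -0.67 and Arc at -1.35.
Of Per1, Per2 and Bhlhe40, 0 of 3 had an unadjusted p under 0.05 in that comparison, with values of -0.29, -0.18 and -0.26. Their 95% intervals were -0.70 to 0.12 for Per1, -0.55 to 0.20 for Per2 and -0.57 to 0.04 for Bhlhe40. In SKF+Aβ+CSP‐TTK21 against CSP‐TTK21 alone, 10 of the 19 early genes had an unadjusted p under 0.05, all higher, where 2.06% of all genes were higher by that rule, with a median of 0.52, and 0 passed the adjusted test. The clock genes had 0 of 10 there, and Per1, Per2 and Bhlhe40 were at 0.05, -0.08 and 0.02. In SKF+Aβ against SKF, Gadd45b (-0.73, adjusted p = 0.0422) and Pcsk1 (0.73, adjusted p = 0.0450) passed the edgeR test, 2 of the 19 where 2.08% of all genes passed, and none of the 3 clock genes did. The call of Gadd45b was lost in 6 of the 10 fits that left out a library, those without a library of SKF, SKF+Aβ or SKF+Aβ+CSP, with the edgeR adjusted p up to 0.147. That of Pcsk1 was lost in 9 of the 10, all but the fit without replicate 1 of SKF+Aβ+CSP‐TTK21, with the edgeR adjusted p up to 0.201. Both calls were also lost in a fit of the 4 libraries compared (edgeR adjusted p = 0.0880 and 0.103) and with offsets for gene length on the chromosome (-0.48, adjusted p = 0.131, and 0.66, adjusted p = 0.0649). Of the 19 early genes, 15 were below 0 in SKF+Aβ against SKF (median -0.38) and 17 in SKF+Aβ+CSP against SKF (median -0.43). Over all 15032 genes, 7538 and 7474 were below 0. In SKF+Aβ+CSP‐TTK21 against SKF+Aβ+CSP, 14 of the 19 were above 0 (median 0.32), as were 7682 of all genes. Per1, Per2 and Bhlhe40 were below 0 there for 3 of 3 (median -0.21). Differences in fold change between genes were not tested.

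**Figure D3:**
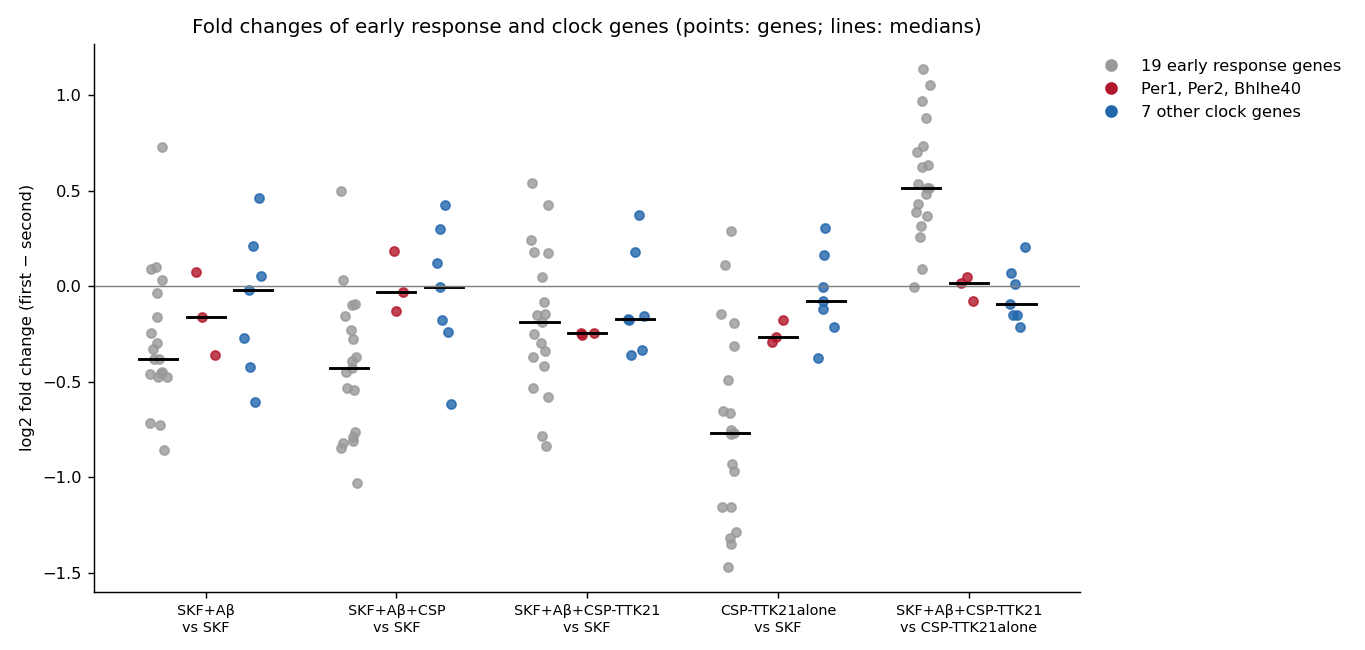
Log2 fold change (vertical axis, first group minus second) of 19 early genes (grey), Per1, Per2 and Bhlhe40 (red) and the 7 other clock genes (blue) in 5 comparisons, with medians as lines. The early genes had a median of -0.77 in CSP‐TTK21 alone against SKF and 0.52 in SKF+Aβ+CSP‐TTK21 against CSP‐TTK21 alone, while the red points lay between -0.29 and 0.05 in both.

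Each pair of clock genes was also compared over the 10 libraries by correlation of log2 normalized CPM, with permutation tests adjusted over 65 relations. They were the 45 pairs and each clock gene against the early gene mean and against a gene length measure described further on. That measure was chosen after the levels were seen, and no adjustment over the 45 pairs alone was made. Adjusted p values near 0.05 depend on this set of relations. The 45 pairs of clock genes had 26 positive and 19 negative coefficients, and 3 pairs passed by Pearson's r at an adjusted p under 0.05, while 10 had an unadjusted p under 0.05. Bhlhe40 and Nr1d1, both repressors, moved together (Pearson r = 0.911, permutation p = 0.00014, adjusted p = 0.00487), also by ranks (Spearman rho = 0.939, permutation p adjusted to 0.0119). Per2 and Per3 passed by r (r = 0.834, permutation p = 0.00145, adjusted p = 0.0236) but not by ranks (rho = 0.794, permutation p adjusted to 0.0729). Dbp and Clock moved in opposite directions (r = -0.832, permutation p = 0.00203, adjusted p = 0.0264), also by ranks (rho = -0.903, permutation p adjusted to 0.0129). Nr1d1 and Clock passed by ranks (rho = -0.903, permutation p adjusted to 0.0119) but not by r (r = -0.808, permutation p adjusted to 0.0541), so 3 pairs passed by each measure and 2 by both.
When the 2 libraries farthest from the median of the first gene were left out, r was 0.829 for Bhlhe40 and Nr1d1 (exact permutation p = 0.00682), 0.669 for Per2 and Per3 (exact permutation p = 0.0674) and -0.721 for Dbp and Clock (exact permutation p = 0.0473). With 8 libraries 0 of the 45 pairs passed the adjusted test, while r was larger in size than with 10 for Nr1d1 and Clock (-0.908, exact permutation p = 0.0026) and for Nr1d2 and Arntl (-0.906, exact permutation p = 0.0029). Within groups, from deviations around each group's mean, r was 0.948, 0.675 and -0.794, so the direction of the 3 relations was also present between replicates of a group. The permutations shuffled libraries without regard to group, so shifts shared by the replicates of a group enter their p values.
Among the other pairs, Bhlhe40 and Clock had r = -0.798, Nr1d1 and Dbp 0.784 and Per1 and Ciart 0.772, each with a permutation p that gave an adjusted p of 0.0541. Arntl, which runs opposite to Dbp and Nr1d1 over the day, had r = -0.634 with Dbp, -0.288 with Nr1d1, -0.733 with Nr1d2 and 0.392 with its partner Clock, none past the adjusted test. The mean log2 level of the early genes had its highest coefficient with Per1 (r = 0.629, permutation p = 0.0532, adjusted p = 0.217), and no clock gene passed against it.

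**Figure D4:**
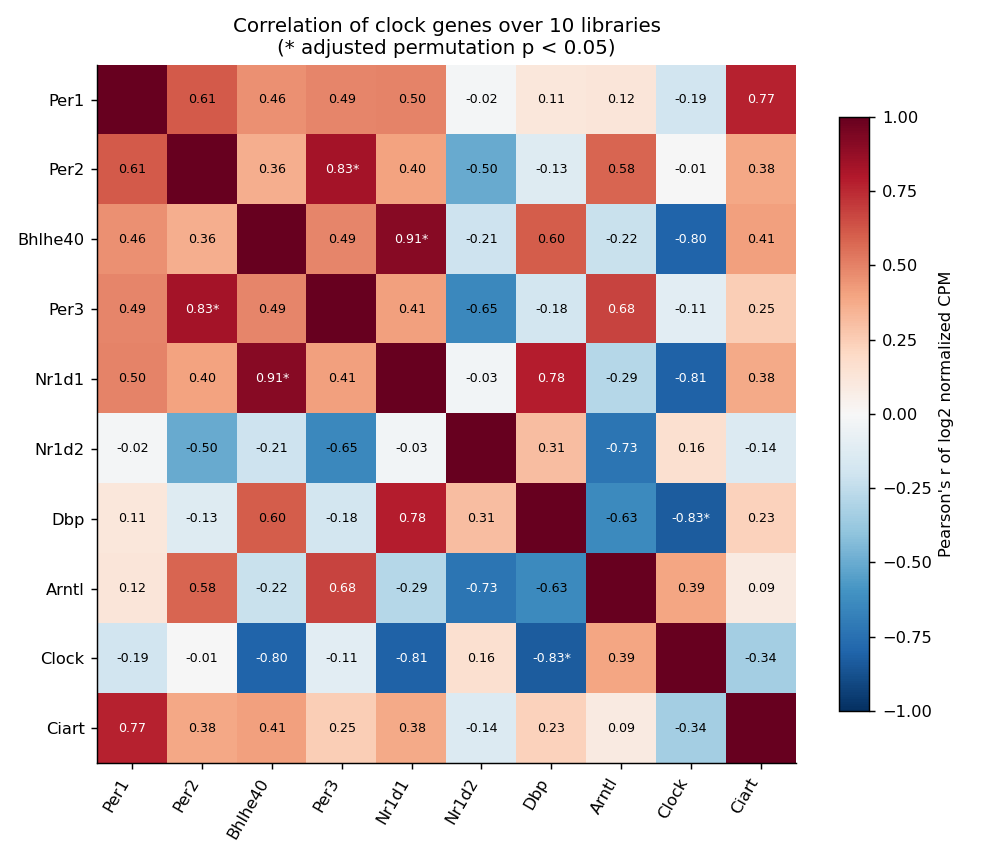
Pearson's r (colour and printed value) of log2 normalized CPM between clock genes over 10 libraries, with an asterisk where the adjusted permutation p of r was under 0.05. The asterisks mark Bhlhe40 with Nr1d1 (0.91), Per2 with Per3 (0.83) and Dbp with Clock (-0.83), and Clock was negative with Bhlhe40, Nr1d1 and Dbp.

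The levels of Clock and Dbp also followed a property shared by many other genes, the length of the gene on the chromosome. For 13358 of the 15032 genes tested (88.9%) RefSeq gave a span, and the difference between the median log2 deviation of the longest quartile (over 65.1 kb) and that of the shortest (under 10.8 kb) was computed in each library. It was -0.15 and -0.20 in the SKF libraries, 0.13 and 0.10 with SKF+Aβ, 0.05 and 0.16 with SKF+Aβ+CSP, 0.03 and -0.05 with SKF+Aβ+CSP‐TTK21, and -0.07 and -0.03 with CSP‐TTK21 alone. Long genes were thus lowest relative to short ones with SKF and highest in the groups with Aβ and without CSP‐TTK21. Clock spans 84.1 kb and Arntl 98.5 kb, both in the longest quartile, while Dbp with 4.95 kb, Ciart with 5.04 kb, Bhlhe40 with 5.7 kb and Nr1d1 with 7.21 kb are in the shortest. Per1, Nr1d2, Per3 and Per2 span 14.8 to 42.2 kb, between the quartiles.
The difference between long and short genes had r = 0.932 with Clock (permutation p = 0.00015, adjusted p = 0.00487, rho = 0.927) and r = -0.901 with Dbp (permutation p = 0.00067, adjusted p = 0.0145, rho = -0.915). With the 2 libraries farthest from its median left out, r was 0.873 and -0.835, and neither passed the adjusted test. It was -0.685 for Nr1d1, -0.621 for Bhlhe40 and 0.574 for Arntl, none past the adjusted test, and -0.09 for Per1 and 0.27 for Per2. This measure was chosen after the levels of the clock genes had been seen. In SKF+Aβ against SKF the median log2 fold change was 0.11 over long genes and -0.19 over short ones. A fit with offsets that followed gene span gave Clock 0.36 (edgeR adjusted p = 0.129) and Dbp -0.41 (adjusted p = 0.234) in that comparison, in place of 0.46 and -0.60. It gave Bhlhe40 -0.18 (adjusted p = 0.450) and Nr1d1 -0.26 (adjusted p = 0.392), in place of -0.36 and -0.42, with 0 of 10 clock genes past the adjusted test. The offsets were fitted to the same libraries, with the differences between groups included. Smaller values for genes in the longest and shortest quartiles thus follow in part from how the offsets were made. The part of gene span in these values was not tested.

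**Figure D5:**
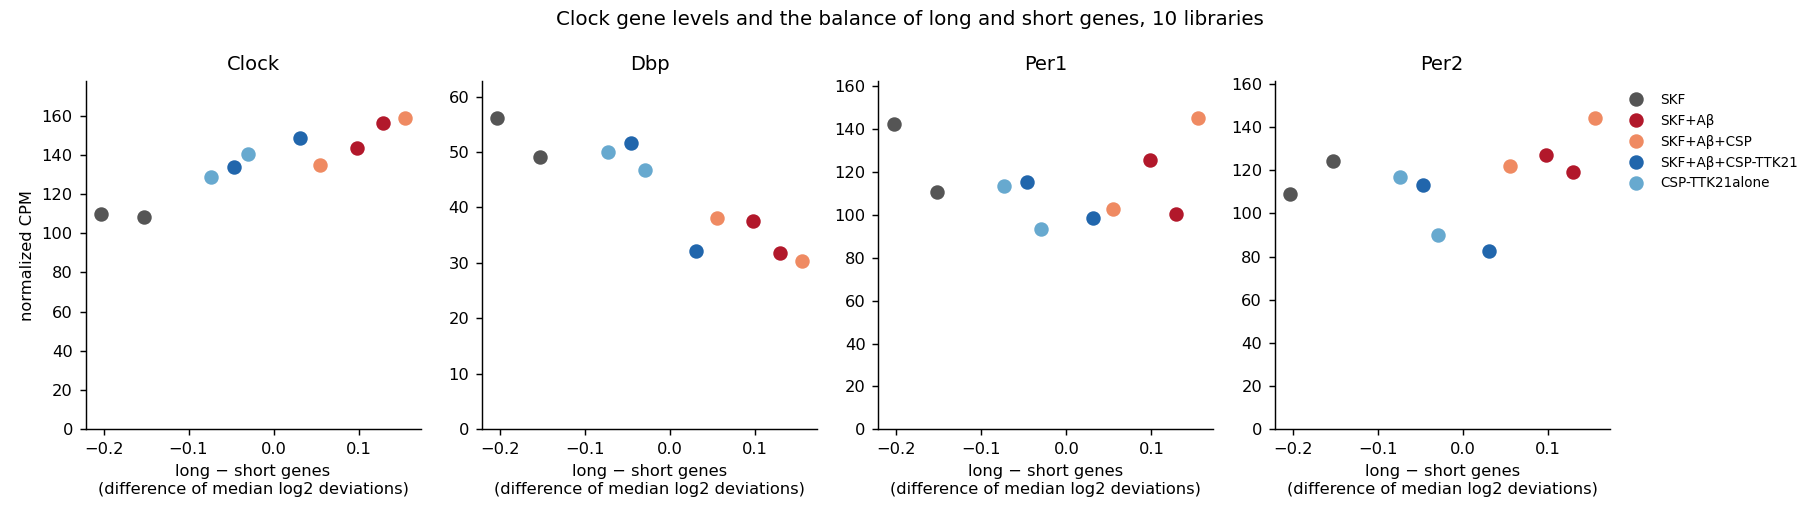
Normalized CPM of Clock, Dbp, Per1 and Per2 (vertical axes from 0) against the difference between the median log2 deviations of long and short genes in each of 10 libraries (points, coloured by group). Clock was higher and Dbp lower where long genes were higher (r = 0.932 and -0.901), and Per1 and Per2 had r of -0.09 and 0.27.

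Markers of other cell types moved beside some of these values. Oligodendrocyte markers (6 of 6 tested) summed to 16211 to 23950 CPM with SKF and to 10918 to 15528 with SKF+Aβ, the comparison in which the log2 fold changes of Dbp, Nr1d1 and Bhlhe40 were -0.60, -0.42 and -0.36 without passing the test. Dentate granule markers (5 of 6 tested) summed to 322 to 329 CPM with SKF and to 338 to 418 with SKF+Aβ. Of these 5, 3 were at higher and 2 at lower values with SKF+Aβ, and 0 had groups that did not overlap. Meningeal markers (5 of 6 tested, Col1a2 at 0 counts) summed to 15.3 to 19.6 CPM with SKF and 23.3 to 35.8 with SKF+Aβ, with 5 of 5 at higher values. In SKF+Aβ+CSP, where Dbp was at -0.61 against SKF without passing the test, oligodendrocyte markers summed to 17271 to 17651 CPM and overlapped SKF. Microglia markers (6 of 6 tested) at 62.9 to 78.2 CPM were below the 79.6 to 147 of SKF, with 6 of 6 at lower values. Dentate granule markers at 334 to 348 CPM summed above SKF, but with 3 of 5 at higher and 2 of 5 at lower values. The 1 of these 5 with an unadjusted p under 0.05 by edgeR was lower. Astrocyte markers (6 of 6 tested) in SKF+Aβ+CSP‐TTK21 against SKF+Aβ+CSP, where Per2 and Arntl were at -0.44 and -0.45 without passing the test, summed to 4066 to 4157 CPM against 3106 to 3302, microglia markers to 90.6 to 143 against 62.9 to 78.2 CPM, and endothelial markers (4 of 6 tested, Cldn5 at 0 counts) to 135 to 144 against 182 to 210 CPM. All 6 astrocyte and all 6 microglia markers were at higher values there, with median log2 fold changes of 0.42 and 0.64. The sums of dentate granule and of CA3 markers did not overlap either, but each list had 3 of 5 at higher and 2 of 5 at lower values. Astrocyte markers in SKF+Aβ+CSP‐TTK21 against SKF+Aβ, where Arntl was at -0.37 without passing the test, summed to 4066 to 4157 against 3240 to 3531 CPM, with 6 of 6 at higher values and a median log2 fold change of 0.31. Oligodendrocyte markers overlapped there, at 14816 to 24920.5 against 10918 to 15528 CPM, with 6 of 6 at higher values, 5 of them with an unadjusted p under 0.05, and a median of 0.54. Microglia markers were at higher values for 6 of 6 (median 0.49) and meningeal markers at lower values for 5 of 5 (median -0.38). Endothelial markers were at lower values for 3 of 4 (median -0.53). The sums of these other lists overlapped too. In CSP‐TTK21 alone against SKF, beside the early genes and Clock, oligodendrocyte markers summed to 14921 to 15200 against 16211 to 23950 CPM, with 6 of 6 at lower values and a median log2 fold change of -0.34. Endothelial markers summed there to 158 to 159 against 160 to 209 CPM, with 2 of 4 at lower values. In SKF+Aβ+CSP‐TTK21 against SKF, where Clock was at 0.37 without passing the test, dentate granule markers summed to 356 CPM in both libraries against 322 to 329. Of these markers 4 of 5 were at higher values. Endothelial markers summed in that comparison to 135 to 144 against 160 to 209 CPM, with 2 of 4 at lower values. In SKF+Aβ+CSP‐TTK21 against CSP‐TTK21 alone, beside the early genes, dentate granule markers summed to 356 CPM in both libraries against 316 to 326. CA3 markers (5 of 6 tested) summed there to 306 to 314 against 250 to 287 CPM and endothelial markers to 135 to 144 against 158 to 159 CPM. The dentate granule and CA3 lists each had 3 of 5 at higher and 2 of 5 at lower values, and endothelial markers 4 of 4 at lower values. The part of these cell types in the levels of the clock and early genes was not tested.

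Of 21 further genes of the clock network, 20 were tested, among them the repressors Cry1 and Cry2, the Clock relative Npas2, the Dbp relatives Tef and Hlf, and the casein kinases and F-box proteins that set the life of PER and CRY proteins. In SKF+Aβ against SKF, 1 of the 20 passed the edgeR test, Sirt1, with a log2 fold change of 0.84 (SE 0.16, adjusted p = 0.0355), where 2.08% of all genes passed. SIRT1 is a deacetylase that acts on BMAL1 and PER2 as well as on many other proteins. It was at 20.2 and 18.96 normalized CPM with SKF and at 38.7 and 31.4 with SKF+Aβ, and all 8 libraries outside SKF lay above both SKF libraries, as with Clock. Against SKF its log2 fold change was 0.91 (adjusted p = 0.0572) with the empty carrier, 0.90 (adjusted p = 0.0800) with the loaded one and 0.51 (adjusted p = 0.633) in CSP‐TTK21 alone, from the same edgeR fit. The call of Sirt1 was lost in 6 of the 10 fits that left out a library, those without a library of SKF, SKF+Aβ or SKF+Aβ+CSP, with the edgeR adjusted p up to 0.158 without replicate 1 of SKF+Aβ, and in a fit of the 4 libraries compared (adjusted p = 0.0958). The edgeR test passed for none of the 20 in the other 7 comparisons, with 0 to 2 having an unadjusted p under 0.05, where 2.18% to 19.6% of all genes had one.
Cry1, whose product closes the loop together with PER proteins, lay between 23.8 and 32.0 normalized CPM in the 10 libraries, and Cry2 between 169 and 237. Hlf (-0.40, adjusted p = 0.192) and Csnk1e (-0.33, adjusted p = 0.207) came next after Sirt1 in SKF+Aβ against SKF by edgeR. A list of 12 genes induced by glucocorticoids, a signal that also raises Per1, had 0 of 12 past the test in each comparison. Its lowest p values in SKF+Aβ against SKF were those of Ddit4 (-0.58, adjusted p = 0.0825), Pdk4 (-0.76, adjusted p = 0.0841), Nfkbia (-0.69, adjusted p = 0.0942) and Cdkn1a (-0.60, adjusted p = 0.159), and 4 of the 12 had an unadjusted p under 0.05, all lower, where 10.9% of all genes were lower by that rule. Per1 was at -0.16 there.

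The genes with levels most like a clock gene over the 10 libraries were looked up among the other 15031 tested. For Per1 the closest were Fam185a (r = 0.887), Capn12 (0.871), Rhobtb1 (0.869), Mok (0.867) and RGD1564937 (0.862), and 0 genes reached 0.9. For Dbp they were Trim8 (0.979), Lhpp (0.9752), Csdc2 (0.972), Ptov1 (0.970) and Rgma (0.969), and 166 genes were above 0.9. For Arntl they were Dicer1 (0.989), Ep400 (0.967), Plekha5 (0.966), Ceacam1 (0.964) and Eif2ak4 (0.964), with 48 genes above 0.9. No clock gene was among the 5 closest of any of the 3, and the coefficients share the depth, tissue composition and gene span differences of the same libraries.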

How the data were processed

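RNA-seq was analysed in 10 libraries, 2 in each of 5 groups, with groups and replicate numbers from the sample titles and ages, doses and times from the study's methods. The authors deposited raw counts per rat Ensembl gene, neither normalized nor pooled. The methods name Trim Galore, Samtools rmdup, TopHat2 and Cufflinks, with Rnor_6.0 and, for the alignment, mm10, and the submitters' processing notes name STAR, RSEM, HISAT2, Salmon and GRCh38. Which of these made the counts, and with which strand setting, is not given in the sources used here, so reads of overlapping genes cannot be told apart.

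Genes were filtered with filterByExpr, scaled by TMM factors and tested with one edgeR 4.0.16 quasi-likelihood fit of all libraries in R 4.3.3 (common biological coefficient of variation 0.136), with Benjamini-Hochberg adjustment over 15032 genes at 0.05. The p-values measure the spread between these libraries. Correlations used log2(normalized CPM + 0.5) and two-sided permutation tests (100000 resamples) that shuffled libraries without regard to group. Alternatives were a replicate block, fits of 4 libraries, DESeq2 1.42.0, limma 3.58.1, RLE factors, other filters, the study's log2 fold change limit of 1.5, each library left out and span offsets.

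The members and gene lists were chosen with earlier results of these data known. Fold changes of clock genes were printed with a p where the unadjusted p was under 0.05. Genes of the other lists were named where they passed the test or, where none did, from the 4 lowest p values, and Hlf, Csnk1e, Cry1 and Cry2 were added after their values were seen. Tsc22d3 has 2 rows, of which the first was used, and 1 gene chosen for the clock network list is not reported here.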

Additional observations from a re-analysis of the deposited data

How the results depend on the processing

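The count of clock genes past the test was 0 in each of the 8 comparisons and in the test across 5 groups, and it stayed 0 under the alternatives except these. DESeq2 gave 1 in SKF+Aβ against SKF (Clock, 0.46, adjusted p = 0.0331). Without a filter on low counts edgeR gave 1 in SKF+Aβ against SKF (Dbp, -0.64, adjusted p = 0.0188), 1 in SKF+Aβ+CSP against SKF (Dbp, -0.64, adjusted p = 0.0247) and 1 across the 5 groups (Dbp, adjusted p = 0.0163). Over all genes, calls in SKF+Aβ against SKF rose from 312 to 822 with DESeq2 and to 1311 without the filter, and the cause was not tested. Counts over all genes without the filter are not given here for SKF+Aβ+CSP against SKF or across the 5 groups. The calls of Dbp there thus have no share of all genes beside them. With the study's limit on the fold change the count was 0 throughout. Without the 2 libraries farthest from the median, 0 pairs of clock genes passed, in place of 3, with fewer libraries entering the test.

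Leaving out each library in turn gave 0 to 0 clock genes past the test in every comparison, with an arm of 1 library assumed to vary like the others. The 14 fold changes followed under the alternatives, 11 of clock genes and those of Sirt1, Gadd45b and Pcsk1, changed sign under none of them. With replicate numbers as a block the count was 0 in each comparison. The labels do not say that a number marks shared animals, and correlations of same-numbered libraries, from -0.07 to 0.25, exceeded 0.1 in 4 of 10 pairs of groups, so the numbers were not treated as pairs. Correlations of deviations from group means were computed as values with no test. RLE factors shifted the median of all genes by under 0.02. With 2 libraries a group the 95% intervals limit what can be seen, and counting depth limits mainly Ciart, at 97 to 166 counts.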
